A study of Mus musculus with 8 samples.

Results

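Wnt5a, Dkk2, Grem1 and Jag1 encode secreted or membrane-bound regulators of the Wnt, BMP and Notch pathways, and they are described here by their H3K27me3 in mouse myoblasts. They were taken by gene symbol from deposited coverage profiles, as 4 of the 273 genes present in all 4 H3K27me3 libraries. All 4 stand under the heading UP in Psat1cKO, which holds 220 genes; the sources used here do not give how the genes of that heading were selected. H3K27me3 was mapped by CUT&RUN, in which an antibody against the mark guides a nuclease that releases the DNA around it. The cells were primary myoblasts of hindlimb muscle, grown in Ham's F10 with 10% horse serum, penicillin, streptomycin and 2.5 ng/mL bFGF. Control cells were Pax7 +/+; Psat1fl/fl (2 libraries), and Psat1cKO cells were Pax7 CRE+/-;Psat1fl/fl (2 libraries), so both genotypes carried the floxed Psat1 alleles and only the knockout carried the Pax7 CRE allele. Pax7 is a transcription factor of muscle stem cells, which restricts the recombination to that lineage. Psat1 makes phosphoserine, a precursor of serine, and the same reaction yields alpha-ketoglutarate, a cofactor of histone demethylases. Psat1 was not among the 273 genes, so its loss could not be checked in these values. The labels used here do not state whether replicates came from separate animals or cultures, and p-values therefore measure only the spread between these libraries, which may be technical. The other 4 of the 8 samples, with IgG, were not analysed here.

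H3K27me3 is placed by Polycomb repressive complex PRC2 and is found on genes held silent, often over broad stretches of CpG-rich DNA at developmental regulators. Wnt ligands bind Frizzled and Ror receptors, and Dickkopf proteins block the Lrp co-receptors of the beta-catenin branch. BMPs signal through receptor kinases to Smad proteins and are held back by extracellular antagonists such as gremlin. Notch receptors are activated by Delta and Jagged ligands on a neighbouring cell. All these pathways act on muscle stem cells, where Notch is known for maintaining quiescence and Wnt and BMP signals for influencing proliferation and differentiation. A profile of H3K27me3 records the mark and not the transcript, so nothing below measures expression.

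The sequence upstream of the start is shown because PRC2 is known to act at CpG-rich DNA, and the members differ widely in both CpG content and mark. RefSeq promoter entries (GRCm38.p6) matched 3 of the 4 genes, Grem1, Jag1 and Dkk2, and did not match Wnt5a. The 250 bases before the start are printed 5′ to 3′ on the strand of the gene, with each CpG dinucleotide in capitals. They lie at chr2:113758649-113758898 for Grem1 (minus strand), chr2:137116521-137116770 for Jag1 (minus strand) and chr3:132085042-132085291 for Dkk2 (plus strand), where the start of the promoter entry lies slightly inside that of the gene entry.
Grem1: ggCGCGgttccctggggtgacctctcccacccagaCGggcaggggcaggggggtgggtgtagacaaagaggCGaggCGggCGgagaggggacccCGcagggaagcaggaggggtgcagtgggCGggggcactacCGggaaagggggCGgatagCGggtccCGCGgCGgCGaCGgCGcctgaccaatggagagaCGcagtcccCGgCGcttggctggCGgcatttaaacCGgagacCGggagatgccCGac
Jag1: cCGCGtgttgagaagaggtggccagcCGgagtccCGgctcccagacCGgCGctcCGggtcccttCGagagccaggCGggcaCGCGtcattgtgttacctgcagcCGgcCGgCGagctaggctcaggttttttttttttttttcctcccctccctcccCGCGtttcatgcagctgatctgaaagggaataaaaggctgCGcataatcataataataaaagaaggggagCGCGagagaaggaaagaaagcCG
Dkk2: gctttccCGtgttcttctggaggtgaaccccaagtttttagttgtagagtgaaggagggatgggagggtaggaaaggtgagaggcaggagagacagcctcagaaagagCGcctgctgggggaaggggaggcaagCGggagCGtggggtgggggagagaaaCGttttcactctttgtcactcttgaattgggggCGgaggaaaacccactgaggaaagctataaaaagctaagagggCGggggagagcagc
The motif searched was CG, which reads the same on both strands. The Grem1 stretch held 24 CpG and 72% G and C, the Jag1 stretch 20 CpG and 57.2%, and the Dkk2 stretch 7 CpG and 55.6%. Of 32851 RefSeq promoter entries, whose median was 6 CpG, 12% held at least as many as Grem1, 17.9% at least as many as Jag1 and 46.3% at least as many as Dkk2. The ratio of observed CpG to the number expected from the C and G content was 0.980 for Jag1, 0.797 for Grem1 and 0.449 for Dkk2. By count Grem1 therefore had the most CpG and by this ratio Jag1. Grem1 had the highest mean H3K27me3 signal per point of the 3 and Jag1 the lowest, as described below. These 3 genes are too few to relate the measures, and entries matched only 70.3% of the 273 genes, so no relation over the tables was computed.

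Each gene was represented in each library by a fixed number of coverage points, and its level is the mean signal over these points. The signal of a library came mostly in whole multiples of a smallest step of 0.0907 to 0.115; were that step a single read and the scale RPM, the libraries would hold 8700000 to 11030000 reads. The body of the gene was inferred to lie at points 21 to 81, with the transcription start at point 21 and flanks of unstated width on either side. Over all 273 genes the median level was 0.0542 to 0.0748 in the 4 libraries. Spearman's rho across these genes was 0.948 and 0.970 between the genotypes of a replicate number but 0.891 and 0.887 between the replicates of a genotype, and values are therefore given by replicate below. Of 9 markers of satellite cells and myoblasts, Pax7, Myf5 and Myf6 were among the 273 genes. Their summed level was 0.0982 and 0.610 in the control libraries and 0.309 and 0.778 in the knockout libraries, lowest in control replicate 1. The sum was higher in knockout within each replicate, but of these genes only Pax7 was, at 8.36 and 1.45 times control. For Myf5 the ratios were 1.19 and 0.825 and for Myf6 0.237 and 1.18, so neither kept its direction between replicates. Only the knockout carried the Pax7 CRE allele, and the part of that allele in the Pax7 values was not tested. A mark on the chromatin of these genes does not test the identity of the cells.

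The members fell into a marked group, Grem1, Wnt5a and Dkk2, and a nearly unmarked gene, Jag1. Grem1 was the highest, Wnt5a next, then Dkk2, then Jag1, in each of the 4 libraries. The ratio of Grem1 to Wnt5a was only 1.07 and 1.17 in control and 1.02 and 1.09 in knockout replicates 1 and 2. It was less than the difference between replicates of either gene, in which both genes fell together from replicate 1 to replicate 2. Whether the order of these neighbours is beyond their spread was not tested. Wnt5a was 2.80 to 3.02 times Dkk2, and Dkk2 was 5.18 to 10.7 times Jag1, which are wider gaps than those between replicates. By the mean of the 4 libraries Grem1 ranked 10, Wnt5a 13, Dkk2 69 and Jag1 204 of the 273 genes. The signal is coverage per position, so a longer gene does not gather more signal by its length alone. The profile, however, fits each gene body to the same number of points. Each body point spans about 166 bases in Grem1, 382 in Wnt5a, 584.5 in Jag1 and 1584 in Dkk2. A domain of a given length in bases therefore fills fewer points of a longer gene, and the levels of different genes depend on this.

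**Figure D1:**
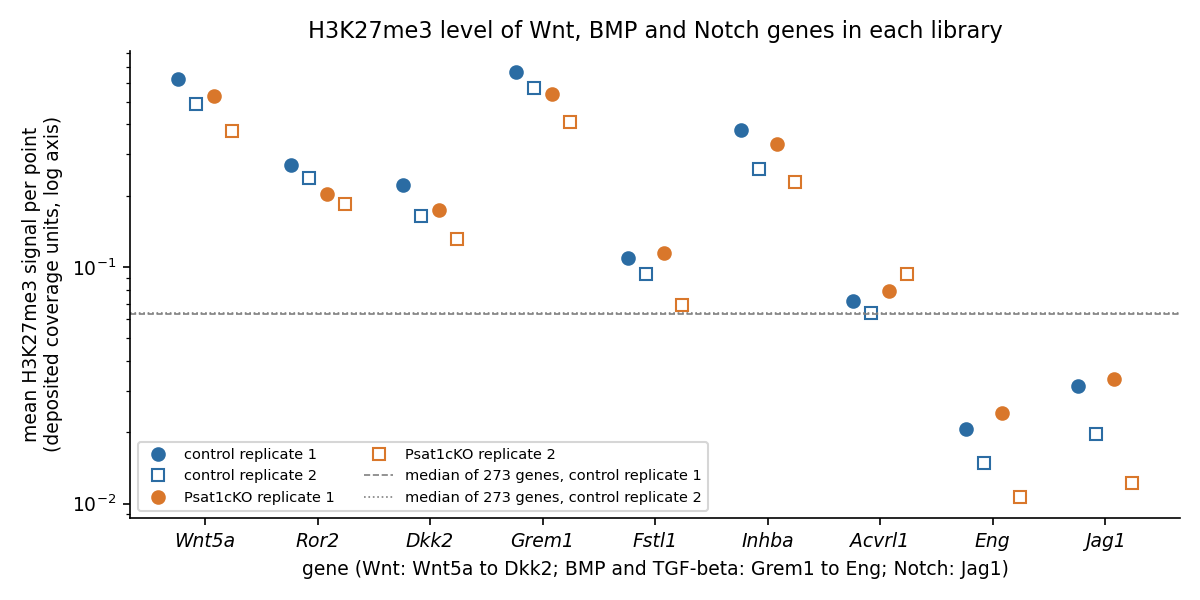
Mean H3K27me3 signal per point (log axis, deposited coverage units) of the members and of the other Wnt, BMP and TGF-beta genes in the tables, 1 symbol per library, with the medians of all 273 genes in the control libraries as grey lines. Grem1, Wnt5a, Inhba, Ror2 and Dkk2 lie above the medians in all 4 libraries, whereas Jag1 and Eng lie below them in all 4.

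Wnt5a encodes a secreted Wnt that signals mainly without beta-catenin, through Ror receptors (transcript NM_009524; gene at chromosome 14, 28504543 to 28527448, plus strand, GRCm38.p6). Its level was 0.622 and 0.488 in control replicates 1 and 2 and 0.526 and 0.375 in knockout replicates 1 and 2. The knockout library was the lower one within each replicate, at 0.846 and 0.770 times control, but knockout replicate 1 lay above control replicate 2, so the genotypes overlapped. Control cells averaged 0.555 ± 0.095 and knockout cells 0.451 ± 0.107 (SD, n = 2 each). The log2 change was -0.30 ± 0.27 (SE) and did not pass limma (adjusted p = 0.999).

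The mark on Wnt5a was broad, covering the upstream flank and the start-side part of the gene and ending inside the body. Signal over the upstream points 1 to 20 was 0.827 and 0.843 in control and 0.730 and 0.645 in knockout cells. Over points 21 to 50 it was 1.22 and 0.918 in control and 1.06 and 0.710 in knockout cells. Beyond point 56 it dropped to 0.160 and 0.0902 in control and 0.108 and 0.0565 in knockout cells, so the edge of the domain lay near the middle of the body in all 4 libraries. A dip, least in control replicate 2, separated the flank from the body. Signal was 1.04 and 0.920 at points 6 to 15 in control cells, against 0.618 and 0.809 at points 16 to 20. In the knockout libraries the dip was 0.509 and 0.426, after 0.881 and 0.796 at points 6 to 15. Between libraries the points of Wnt5a correlated at Pearson's r of 0.685 to 0.852.

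Around its start the genotypes of Wnt5a did not overlap. Over points 11 to 31 the signal was 1.04 and 0.958 in the control libraries and 0.762 and 0.663 in the knockout libraries, at 0.734 and 0.692 times control within replicates. Control cells averaged 0.998 ± 0.057 and knockout cells 0.713 ± 0.070 (SD, n = 2 each). The log2 change there, -0.46 ± 0.21 (SE), had an unadjusted p of 0.0678 and an adjusted p of 0.996 in limma. With 2 libraries against 2, an exact two-sided permutation test cannot go below p = 0.333. Along the body beyond the start, points 32 to 81, the ratios were 0.889 and 0.836 and the log2 change was -0.20 ± 0.39 (SE; limma adjusted p = 0.994). That body value turned positive without control replicate 1 (0.11) or knockout replicate 2 (0.15); the start value was negative with each library left out (-0.56 to -0.37). Whether the change at the start differed from that along the body was not tested.

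**Figure D2:**
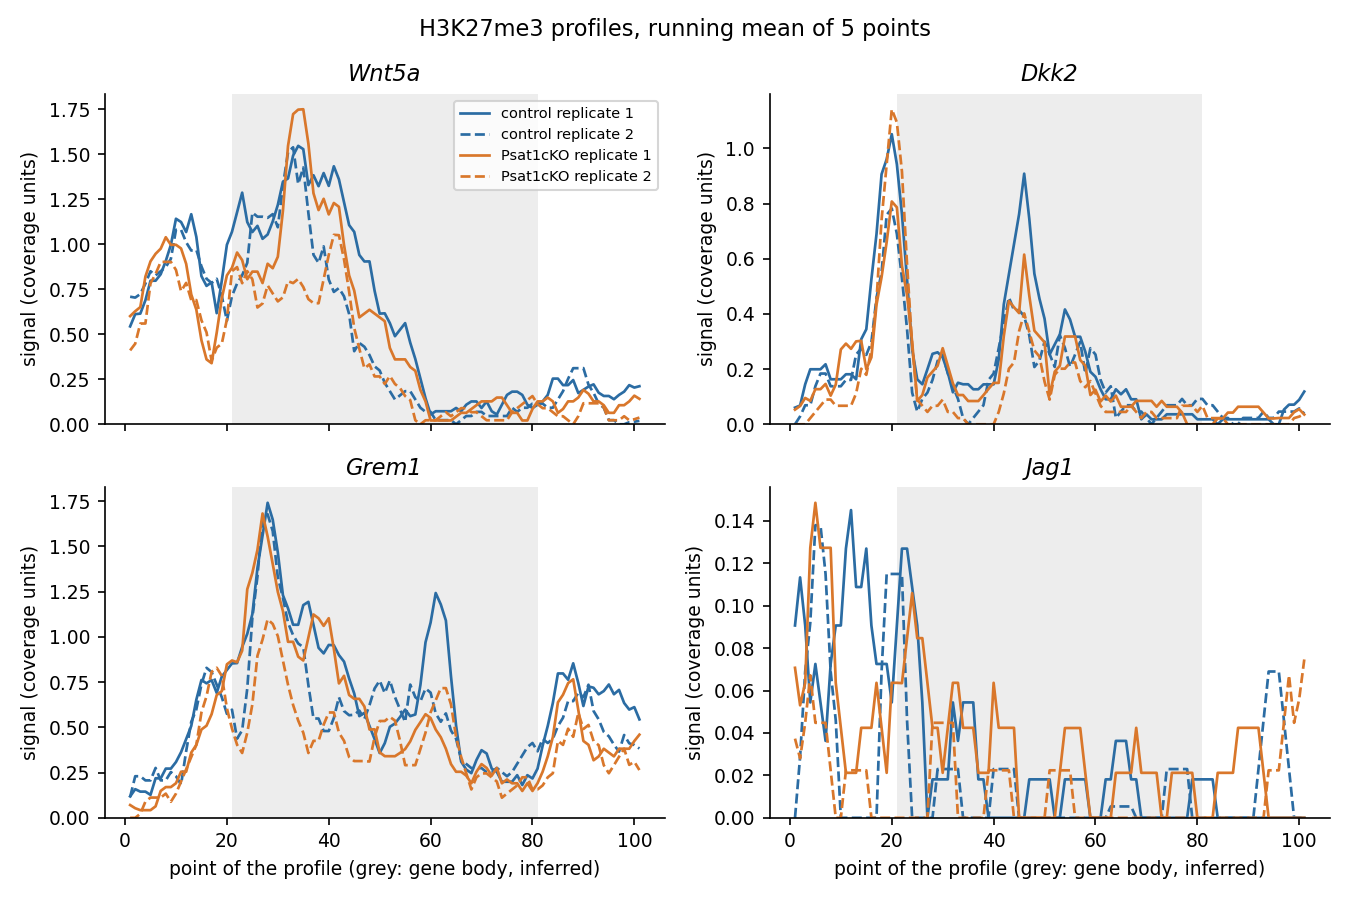
H3K27me3 signal (deposited coverage units, running mean of 5 points) along the points of each member in each library; grey marks the inferred gene body, with the start at its left edge, and the vertical scales differ. Wnt5a shows a broad domain that ends inside the body, and Dkk2 a maximum over few points at the start and another inside the gene. A body point spans about 1584 bases in Dkk2 and 382 in Wnt5a, so widths in points are not widths in bases. Grem1 shows signal over the whole gene and the downstream flank, and Jag1 at most 3 steps at any point.

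Dkk2 encodes a secreted Dickkopf protein that binds Lrp co-receptors and blocks Wnt signalling (NM_020265; chromosome 3, 132085266 to 132180304, plus strand). Its level was 0.223 and 0.164 in control replicates 1 and 2 and 0.174 and 0.131 in knockout replicates 1 and 2. The knockout library was lower within each replicate, at 0.783 and 0.798 times control, and the genotypes overlapped. The log2 change was -0.32 ± 0.40 (SE; limma adjusted p = 0.999).

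The mark on Dkk2 stood in separate places, a maximum over few points at the start whose promoter is printed above and a domain inside the gene. A body point spans about 1584 bases in Dkk2, so few points are not a short stretch in bases. Over points 16 to 25 the signal was 0.716 and 0.448 in control and 0.501 and 0.661 in knockout cells, ratios of 0.700 and 1.47 that point in opposite directions. Between these places, over points 31 to 40, it was 0.148 and 0.0805 in control and 0.106 and 0.0112 in knockout cells. At points 41 to 60, which correspond to about 31.7 to 61.8 kb from the start, the signal was 0.420 and 0.294 in control and 0.303 and 0.201 in knockout cells. The inner domain was lower in the knockout of each replicate, at 0.721 and 0.686 times control, and the genotypes overlapped narrowly, knockout replicate 1 standing above control replicate 2. With the start region (points 11 to 31) the log2 change was -0.08 ± 0.37, turning to 0.11 without control replicate 1, and with the body (points 32 to 81) it was -0.48 ± 0.45 (SE; limma adjusted p = 0.996 and 0.994). The body value was -0.79 without knockout replicate 1 and -0.17 without knockout replicate 2. Windows other than points 11 to 31 and 32 to 81 were chosen after the profiles were seen, here and for the other genes, and carry no test.

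Dkk2 also had fewer points at a raised signal than Wnt5a and Grem1. This is not a width in bases, since a body point spans about 1584 bases in Dkk2, 382 in Wnt5a and 166 in Grem1. Points above a signal of 0.3, about 3 steps, numbered 25 and 21 in control and 17 and 12 in knockout cells. A point of 3 steps had a signal of 0.272 in control replicate 1, below this threshold, and 0.345 in control replicate 2, above it. Counts of different libraries are therefore not strictly alike. The same count was 59 and 52 against 57 and 48 for Wnt5a, and 77 and 72 against 74 and 57 for Grem1. For Jag1 it was 0 or 1 in every library. The highest point of Dkk2 lay at the start in 3 libraries, at point 20 or 21, and inside the gene, at point 48, in knockout replicate 1.

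Grem1 encodes gremlin 1, a secreted protein that binds BMPs and keeps them from their receptors (NM_011824; chromosome 2, 113748675 to 113758648, minus strand). Its level was 0.666 and 0.570 in control replicates 1 and 2 and 0.535 and 0.408 in knockout replicates 1 and 2. Both knockout libraries lay below both control libraries, with ratios of 0.804 and 0.716 within replicates. Control cells averaged 0.618 ± 0.068 and knockout cells 0.472 ± 0.090 (SD, n = 2 each). The log2 change, -0.39 ± 0.25 (SE), had an unadjusted p of 0.149 and an adjusted p of 0.999 in limma. The change was negative with each library left out in turn (-0.58 to -0.20). In bulk profiles such as these, a smaller share of cells with the mark and less of the mark in each cell cannot be told apart.

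Signal covered nearly the whole of Grem1, with 2 to 10 points below 0.01 in a library. The highest signal lay just inside the gene, at points 26 to 30, about 0.831 to 1.5 kb from the start, at 1.74 and 1.68 in control and 1.55 and 1.10 in knockout cells. At points 56 to 65 it was 0.913 and 0.610 in control and 0.455 and 0.549 in knockout cells, where control replicate 1 stood above the other 3 libraries. Past the end of the gene, at points 86 to 95, it was 0.768 and 0.595 in control and 0.553 and 0.425 in knockout cells, with ratios of 0.719 and 0.714. The downstream flank as a whole (from point 82 on) ranked 9 of 273 genes, while the upstream flank (points 1 to 20) ranked 52.

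The lower signal of Grem1 in knockout cells appeared in every part of its profile, in both replicates. These parts come from the same 4 libraries and are not independent. The share of all genes lower in every part was not computed. The ratios were 0.775 and 0.776 in the upstream flank, 0.970 and 0.673 at points 21 to 40, 0.816 and 0.656 at points 41 to 60, 0.575 and 0.871 at points 61 to 81, and 0.674 and 0.700 in the downstream flank. Dkk2 had ratios below 1 in both replicates in the upstream flank (0.750 and 0.933), at points 41 to 60 and at points 61 to 81 (0.994 and 0.557), but not at points 21 to 40 (0.809 and 1.00) or downstream (1.40 and 0.325), where it had little signal. Wnt5a had them in the upstream flank (0.883 and 0.765), at points 21 to 40 (0.915 and 0.683) and downstream (0.635 and 0.45), and went in opposite directions at points 41 to 60 (0.758 and 1.11) and 61 to 81 (0.712 and 1.27). In the fits, the start region of Grem1 gave a log2 change of -0.24 ± 0.24 and its body -0.38 ± 0.31 (SE; limma adjusted p = 0.996 and 0.994). With each library left out, the start value ranged from -0.46 (without knockout replicate 1) to -0.016 (without knockout replicate 2), and the body value from -0.55 to -0.22 without the same libraries.

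**Figure D3:**
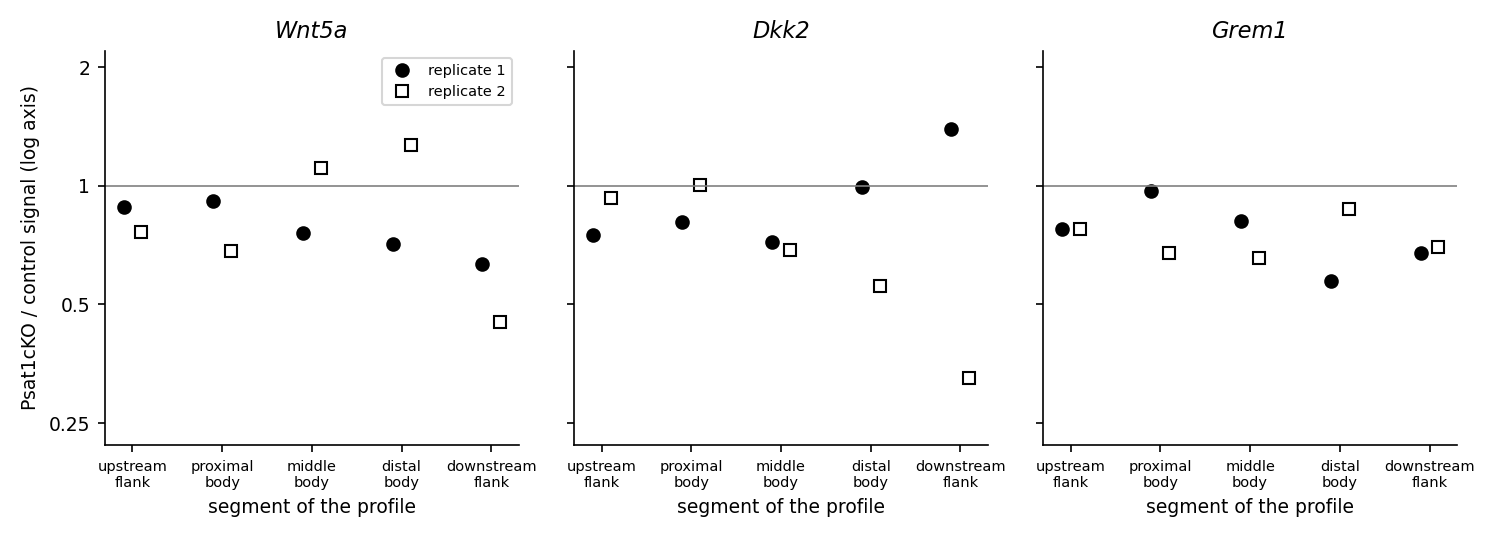
Knockout to control ratio of H3K27me3 signal (log axis) in 5 segments of the profiles of Wnt5a, Dkk2 and Grem1, 1 symbol per replicate, with a line at equal signal. Every ratio of Grem1 lies below 1, whereas Wnt5a and Dkk2 have ratios on both sides of it.

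Jag1 encodes Jagged 1, a membrane ligand of Notch receptors (NM_013822; chromosome 2, 137081451 to 137116520, minus strand). Its level was 0.0314 and 0.0196 in control replicates 1 and 2 and 0.0336 and 0.0122 in knockout replicates 1 and 2. The values separated by replicate and not by genotype, and all were below the median gene of their library. Between 74 and 91 points were below 0.01, and the highest point was 2 or 3 steps in every library. Summed over its points the gene held 35 and 17.2 steps in control and 32 and 11 steps in knockout cells. A difference between genotypes was not detectable at this depth: the log2 change was -0.17 ± 0.68 (SE; limma adjusted p = 0.999), and it turned positive without control replicate 1 (0.07) or knockout replicate 2 (0.32). Jag1 passed the filter on low values through both replicate 1 libraries, and its body alone was too low to be tested. What signal there was lay upstream and near the start, at 0.0816 and 0.0422 over points 1 to 30 in control and 0.0636 and 0.0224 in knockout cells, against 0.0102 and 0.0101 from point 31 on in control and 0.0209 and 0.0079 in knockout cells. The points of Jag1 correlated between libraries at r of 0.00081 to 0.153.

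The share of a gene's signal that lay around its start, points 11 to 31, is free of the scaling between libraries. It was 37.8 ± 4.3% in control and 33.4 ± 4.7% in knockout cells for Wnt5a, and 31 ± 0.57% and 34.3 ± 1.3% for Grem1 (SD, n = 2 each). For Dkk2 it was 41.3% and 41.6% in control and 43.1% and 56.8% in knockout replicates 1 and 2. The median gene had 27.2 to 28.9% of its signal there, so the 3 marked members were all above the median gene in each library. For Jag1 the share was 51.4% and 34.8% in control and 31.2% and 27.3% in knockout cells, from few reads.

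Across all genes tested, 0 of 218 passed limma at an adjusted p below 0.05, a background of 0%. Of the 4 members, 0 did, and 1 gene of the 218 had an unadjusted p below 0.05. This fit had no term for the replicate number, and deviations of same-numbered libraries correlated at 0.758. Its SEs include that shared deviation, so a count of 0 does not show that no gene changed. In the start region 0 of 222 genes passed limma and in the body 0 of 219, with 2 and 3 genes at an unadjusted p below 0.05. By direction, 3 of 4 members (Wnt5a, Dkk2 and Grem1) were lower in the knockout of both replicates, against 33% of all genes tested and 37.6% of the UP list. For 1 of 4, Grem1, both knockout libraries lay below both control libraries, against 10.6% of genes. In the start region 3 of 4 (Wnt5a, Grem1 and Jag1) were lower in both replicates, against 28.4% of genes, and the genotypes of 1 of 4, Wnt5a, did not overlap, against 11.3%. In the body 3 of the 3 tested were lower in both replicates, against 32.9% of genes, and those of 1 of 3, Grem1, did not overlap, against 10.5%. Of the 50 genes with the highest mean over the 4 libraries, which include Grem1 and Wnt5a, 46% were lower in both replicates and in 22% both knockout libraries lay below both control libraries.

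Ordered from the lowest log2 change, Grem1 stood at 18, Dkk2 at 29, Wnt5a at 35 and Jag1 at 67 of the 218 genes tested. Among the 50 genes of highest mean, Grem1 had the lowest change and Wnt5a the fifth lowest. The median of the 50 was -0.06, with quartiles of -0.20 and 0.09, and the median of all 218 genes was -0.04 (0.06 in replicate 1 and -0.15 in replicate 2). The log2 changes of the members by replicate were -0.31 and -0.47 for Grem1, -0.24 and -0.37 for Wnt5a, -0.34 and -0.31 for Dkk2 and 0.07 and -0.42 for Jag1. The set of 50 was chosen after the values were seen, and the members themselves with earlier results known. Of the fibro-adipogenic markers, 3 of 6 (Pdgfra, Col1a1 and Dcn) were in the tables; their summed level was 0.706 and 0.589 in control and 0.671 and 0.529 in knockout cells. Of the endothelial markers 1 of 5 was present (Cdh5, 0.0301 and 0.0490 in control, 0.0483 and 0.0610 in knockout cells), of the smooth muscle and pericyte markers 2 of 5 (summed level 0.290 and 0.258, then 0.326 and 0.246), and of the immune markers 0 of 4. The part of other cell types in these results was not tested.

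**Figure D4:**
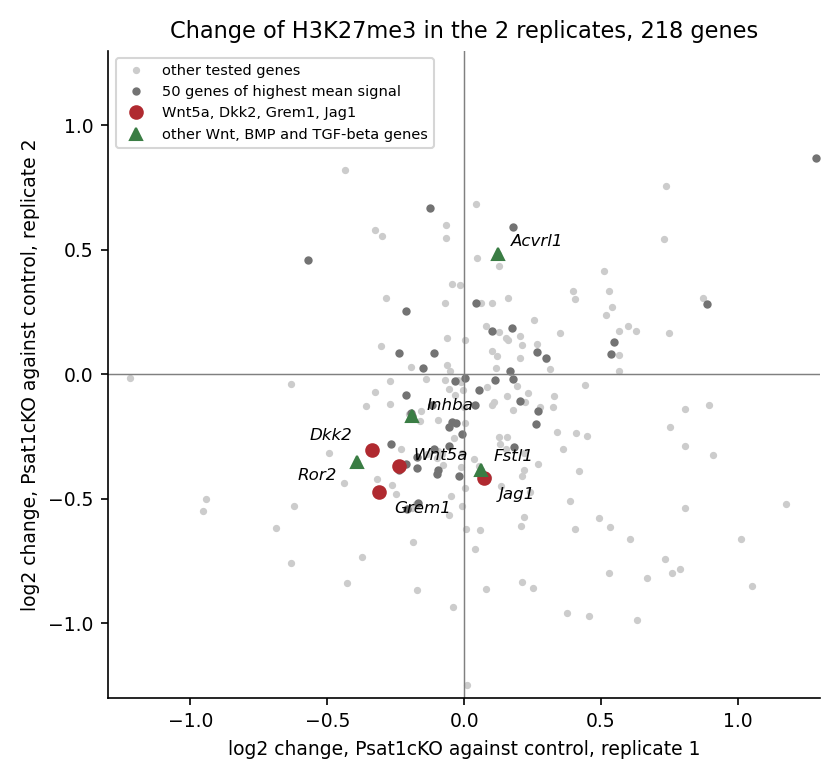
Log2 change of H3K27me3, knockout against control, in replicate 1 (horizontal) and replicate 2 (vertical) for the 218 genes tested, of which 3 lie outside the axes; red circles are the members, green triangles the other Wnt, BMP and TGF-beta genes, dark dots the 50 genes of highest mean signal. Wnt5a, Dkk2, Grem1, Ror2 and Inhba lie in the lower left, where both replicates were lower in knockout cells.

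The rest of these pathways was sparse in the tables. Of 196 genes listed by role, 9 were present: the 4 members, Ror2, Inhba, Acvrl1, Eng and Fstl1. None of the listed Notch receptors, modifiers or targets, Wnt transducers or targets, or Smad and Id genes was among them. Of the 8 with enough signal to test, 0 passed limma. In the knockout of both replicates 5 were lower, against 33% of all genes tested and 37.6% of the UP list. A further 1 was higher in both, a direction whose share over all genes was not computed. The median log2 change of the 8 was -0.24 against -0.04 for all genes. These 8 include the 4 members, chosen with earlier results known. Beyond the members, Ror2 and Inhba were lower in both replicates, Acvrl1 was higher, and Fstl1 went in opposite directions.

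Ror2, a receptor kinase for Wnt5a, had the mark mainly upstream of its start, with levels of 0.269 and 0.237 in control and 0.203 and 0.184 in knockout cells. Both knockout libraries lay below both control libraries, as for 10.6% of all genes tested, at 0.755 and 0.775 times control. The log2 change was -0.37 ± 0.36 (SE, limma adjusted p = 0.999). Around its start the signal was 0.520 and 0.512 in control and 0.351 and 0.261 in knockout cells, and the log2 change was -0.68 ± 0.36 (SE), with an unadjusted p of 0.0987 and an adjusted p of 0.996 in limma. Around the start 28.4% of all genes tested were lower in both replicates, as Wnt5a and Ror2 were. For 11.3% both knockout libraries lay below both control libraries there, as they did for Wnt5a and Ror2. Along the body of Ror2 the replicates went in opposite directions, at 0.714 and 1.10 times control (log2 change -0.16 ± 0.48, SE; limma adjusted p = 0.994).

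Inhba encodes the beta A subunit of activins, ligands of the TGF-beta family that can also be countered by follistatins. Its level was 0.379 and 0.259 in control and 0.331 and 0.230 in knockout cells, with ratios of 0.873 and 0.887 and genotypes that overlapped. Acvrl1, a receptor of the BMP and TGF-beta family known from endothelium, had 0.0719 and 0.0637 in control and 0.0793 and 0.0930 in knockout cells. It was higher in both replicates, and both knockout libraries lay above both control libraries (log2 change 0.30 ± 0.44 (SE), limma adjusted p = 0.999). The share of all genes with either trait was not computed. Fstl1, a secreted follistatin-like protein, had 0.109 and 0.0934 in control and 0.114 and 0.0693 in knockout cells, opposite directions in the replicates. Eng, a TGF-beta co-receptor, had 0.0107 to 0.0240 and was too low to be tested over its whole profile; around its start and along its body the log2 changes were -0.03 ± 0.33 and 0.07 ± 0.40 (SE; limma adjusted p = 0.996 and 0.994). The directions of Inhba and Fstl1 turned with 1 library left out.

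By shape alone, over all points of the 4 libraries, each divided by the library's sum for the gene, the members were compared with the other genes by Pearson's r. Among the 3 genes most like Wnt5a were Tbx18, a T-box transcription factor (r = 0.61), and Fabp3 of the DOWN list (0.53). Grem1 was most like Inhba (r = 0.49), an activin subunit described above, then Esm1 and Crabp1 (0.47 each). Dkk2 was most like Efemp1 (r = 0.50), Syt13 (0.49) and Crabp1 (0.46). For Jag1 the highest values were 0.30 for Pdgfra, 0.27 for Bdnf and 0.26 for Peli2, as its points were mostly at 0. These are descriptions across points of the same libraries, which are not independent.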

How the data were processed

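The authors deposited signal values, the coverage of a gene at a fixed number of points, in 2 tables that each hold 1 control and 1 Psat1cKO library, with no statement of their scaling. Per the submitters' processing notes, Trimmomatic 0.36, Bowtie, Picard 2.22.2 and mm10 were used; the sources used here give neither their order nor the profiling program. Replicate numbers were read from the numbers of the tables. From 90.9 to 92.4% of values above 0.01 were whole multiples of a library's step (tolerance 0.02 of a step). Neighbouring points were equal in 36.7% of cases at points 21 to 81 of the 28 shortest genes, against 13.7% before and 8.75% after, which placed the gene body.

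Count models were not used, because coverage does not count reads. A gene was tested where its sum over points exceeded 2.35 (the lower quartile) in 2 or more libraries, which kept 218 genes. These were fitted with limma 3.58.1 (R 4.3.3) with a variance trend on log2(sum + 1), with genotype as the only term and Benjamini-Hochberg adjustment over all genes tested at 0.05. Points 11 to 31 and 32 to 81 were fitted likewise. Log2 changes, given on this scale, are understated where signal is low. Coordinates came from RefSeq GRCm38.p6 (268 of 273 genes matched by accession, 5 by symbol). The fit was also run on simulated data. Their libraries carried no shared deviation by replicate number, so they do not test the fit under such a deviation. Other steps used Python 3.11.15 with numpy 2.4.6, pandas 2.3.3 and matplotlib 3.10.9.

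The members and gene lists were chosen with earlier results of these data known. Genes named are the members, all listed pathway genes in the tables, the 3 genes of most similar profile to each member, and for other lists at most 3 genes of highest control level. A few genes are not reported here; the counts and median of the pathway lists leave them out, and counts over all genes include them. Alternatives were other pseudocounts, filters, scalings and summaries of the points, the replicate block, and each library left out.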

Additional observations from a re-analysis of the deposited data

How the results depend on the processing

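Wnt5a, Dkk2 and Grem1 over the whole profile kept a negative log2 change under each of the 15 alternatives, and neither they nor Jag1 passed limma in any (lowest adjusted p = 0.653). Leaving out each library in turn gave a log2 change from -0.54 to -0.06 for Wnt5a, -0.53 to -0.11 for Dkk2, -0.58 to -0.20 for Grem1 and -0.66 to 0.32 for Jag1. Over the body it ranged from -0.56 to 0.15 for Wnt5a, and over the start from -0.27 to 0.11 for Dkk2. For Inhba it ranged from -0.44 to 0.088 and for Fstl1 from -0.48 to 0.16. A fit without 1 library also carries the difference between replicates. The count of genes past limma over the whole profile was 0 to 1 with 1 library left out, Pax7 being called without control replicate 2, and likewise 0 to 1 over the body.

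With the replicate number as a block, 5 genes passed over the body (among them Fbxo44, Foxs1, Rab6b and Twist1) against 0 without it, and 0 over the whole profile or the start; no member passed (Grem1 body adjusted p = 0.224, Wnt5a start adjusted p = 0.433, limma). Deviations of same-numbered libraries correlated at 0.758 over 218 genes, but 2 pairs and the labels do not establish a pairing. The SEs given for the genes above come from the fit without the block and include this shared deviation. With the block, the SE over the whole profile was 0.090 for Grem1 (limma unadjusted p = 0.0195, adjusted p = 0.653), against 0.249 without it. For Dkk2 it was 0.128 (limma unadjusted p = 0.0811, adjusted p = 0.655), against 0.404. Median scaling and quantile normalization turned the direction of no member in any region, but made several values smaller. Quantile normalization gave -0.21 for Wnt5a, -0.19 for Dkk2 and -0.28 for Grem1 over the whole profile. Over the body, median scaling and quantile normalization gave -0.061 and -0.042 for Wnt5a, -0.35 and -0.34 for Dkk2 and -0.24 and -0.23 for Grem1. Jag1 had no value under the stricter filter.

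The share around the start depends on its width. At points 16 to 26 it was 17.8 ± 1.9% in control and 16.6 ± 2.0% in knockout cells for Wnt5a (SD, n = 2 each). It was 29.5 ± 3.4% and 39.3 ± 15.2% for Dkk2 and 13.8 ± 1.1% and 17.6 ± 1.8% for Grem1. For Jag1 it was 30.2 ± 1.7% and 10.9 ± 15.5%. The knockout libraries of Dkk2 and of Jag1 thus lay far apart. At points 6 to 36 it was 58.8% and 57.8% for Wnt5a, 47.3% in control cells for Dkk2, 41.1% and 43.3% for Grem1, and 61.8% and 46.3% for Jag1. Without the highest point of each library it was 37.5% in control cells for Dkk2, 28.5% and 31.6% for Grem1 and 22.8% in knockout cells for Jag1. Depth limits Jag1, which held 11 to 35 steps summed over its profile.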
